A study of Mus musculus with 6 samples.

Results

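Kupffer cells are the resident macrophages of the liver sinusoids, where they clear bacteria, cell debris and aged red cells from portal blood. They carry receptors that set them apart from most other macrophages, and they share with macrophages of every tissue the receptor for colony-stimulating factor 1 and the machinery of phagocytosis. The ovary and uterus hold macrophages of their own, which remove dying cells during follicle loss and tissue remodelling. The genes described here are *Marco*, *Clec4f*, *Vsig4*, *Cd5l*, *Timd4* and *Cd163*, named as Kupffer cell genes, and *Csf1r*, *Cd68* and *Mrc1*, expressed by tissue macrophages in general. The set was chosen by the *Marco* ratio of BHPF over control in ovary, a value of these same arrays, so every *Marco* value below describes the choice and supports nothing. Of the 9 genes, 8 had a probe among the 20284 genes that could be named on the arrays, with 10 probes in all, and *Cd68* was not matched to a probe.

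The samples came from 24-day-old female CD-1 mice, an outbred strain, that received BHPF, a fluorene bisphenol used in place of bisphenol A, or peanut oil alone, by gavage for 3 days. The BHPF dose was 50 mg kg−1 bw d−1. RNA of the liver, ovary or uterus of 3 animals was pooled and hybridized to 1 one-colour Agilent array, which gave 6 arrays and 1 array for each of control liver, BHPF liver, control ovary, BHPF ovary, control uterus and BHPF uterus. No group had a second pool, so the spread between animals was not measured and no difference could be tested. The number of arrays limits the precision of every value.

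The level of a gene is the log2 intensity of its probe minus the 75th percentile of the same array, and values are compared between arrays for 1 gene, not between genes, except to name the brightest genes of a list. The log2 ratio is the BHPF level minus the control level within a tissue. A gene is counted as lower or higher when its arrays differ by at least 2-fold. Repeated spots of 1 probe put the technical SD of a log2 ratio at 0.136, and this leaves out animals, pools and hybridizations. All 6 arrays lay on 1 slide in 1 scan, with the control arrays in its first row and the BHPF arrays in its second, so position and treatment cannot be told apart. Between 61.3% and 74.5% of probes were well above background on an array, and no probe was saturated. Taken as a sum, the markers of each tissue were highest on its own arrays. The summed linear level of 18 hepatocyte genes was 635 and 617 on the liver arrays and at most 57.1 on the others, that of 8 ovary genes was 58.9 and 60.2 on the ovary arrays and at most 19.5 elsewhere, and that of 7 uterus genes was 19.2 and 20.1 on the uterus arrays and at most 4.47 elsewhere. Single markers did not all follow. The brighter probe of *Foxl2*, an ovary marker, was at 5.12 and 5.19 in liver, against 4.31 and 4.35 in ovary. That of *Foxa2*, a uterus marker, was at 2.11 and 2.46 in liver, against −0.47 and 0.05 in uterus. The authors' table of log2 values gives the scanner values of the control uterus array under the BHPF heading and the reverse, for 100% of 38450 probes (tolerance 0.001 in log2). The scanner files were used here under their own labels, and with the table's headings every uterus difference below changes sign. The BHPF uterus array also carried liver transcripts. All 18 hepatocyte genes were at least 2-fold higher there than on the control uterus array, with a median log2 ratio of 3.89, and their summed linear level was 57.1, against 4.49 in control uterus. Adipocyte genes also differed between the arrays of a tissue, with a median log2 ratio of −1.46 in uterus and 3 of 5 measured genes at least 2-fold lower, a median of 0.72 in ovary with 2 of 6 higher, and −0.25 in liver with 1 of 5 lower. *Adipoq* was at −3.31 in uterus and 1.35 in ovary, and *Cfd* at −2.71 and 2.05. The part of differing fat or liver content in the macrophage values was not tested. In bulk tissue, fewer macrophages and less RNA per macrophage cannot be told apart.

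The sequences just upstream of 3 of the genes are shown because their levels set the pattern of the whole set: *Marco*, the gene that differed most between BHPF and control, and *Clec4f* and *Vsig4*, the genes with the widest gap between liver and the other tissues. Each is the 250 bases before the RefSeq transcription start in GRCm38.p6, printed 5′ to 3′ on the gene's own strand, which is minus for all 3 genes. Capitals mark GAGGAA or its reverse complement TTCCTC, the core of many sites of PU.1, the myeloid transcription factor encoded by *Spi1*. *Marco* lies at chr1:120505025-120505274, *Clec4f* at chr6:83656117-83656366 and *Vsig4* at chrX:96293439-96293688.
Marco: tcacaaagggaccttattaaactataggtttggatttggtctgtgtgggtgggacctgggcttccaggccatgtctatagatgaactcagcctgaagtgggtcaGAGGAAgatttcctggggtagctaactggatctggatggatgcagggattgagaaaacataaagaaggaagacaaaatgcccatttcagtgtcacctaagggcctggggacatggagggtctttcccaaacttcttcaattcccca
Clec4f: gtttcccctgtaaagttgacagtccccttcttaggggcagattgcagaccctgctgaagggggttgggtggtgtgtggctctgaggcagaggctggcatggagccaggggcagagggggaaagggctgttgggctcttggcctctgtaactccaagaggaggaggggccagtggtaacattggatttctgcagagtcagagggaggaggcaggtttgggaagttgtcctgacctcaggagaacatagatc
Vsig4: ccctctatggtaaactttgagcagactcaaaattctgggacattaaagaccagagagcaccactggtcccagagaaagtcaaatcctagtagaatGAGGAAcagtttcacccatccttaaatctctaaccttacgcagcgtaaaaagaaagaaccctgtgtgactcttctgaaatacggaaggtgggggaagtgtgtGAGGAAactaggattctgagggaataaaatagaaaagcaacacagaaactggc
The *Marco* window held the motif 1 time, the *Vsig4* window 2 times and the *Clec4f* window not at all. The motif was present in 5 of the 8 windows of the set that could be read, and in 23.3% of 32851 mouse windows of the same length. A match of letters is a description and shows no binding.

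On the control arrays, every measured gene of the set was brightest in liver. The gap was widest for *Vsig4*, the complement receptor CRIg, which was 339-fold brighter in liver than in ovary and 272-fold brighter than in uterus. *Clec4f*, a galactose-binding lectin of Kupffer cells, was 193-fold and 156-fold brighter. *Cd5l*, a secreted macrophage protein, was 76.8-fold brighter than in ovary and 87.2-fold brighter than in uterus. *Timd4*, a receptor for phosphatidylserine on dying cells, was 25.3-fold and 28.0-fold brighter. *Marco*, a scavenger receptor that binds bacteria and particles, was 11.4-fold brighter than in ovary and 5.55-fold brighter than in uterus. The general macrophage genes had narrower gaps than these. *Mrc1*, the mannose receptor, was 4.56-fold and 3.48-fold brighter in liver, and *Csf1r*, the receptor on which macrophage survival depends, 3.44-fold and 2.60-fold. All these gaps depend on the scaling, and the small ones most. The 75th percentile was an intensity of 3443 on control liver, 7500 on control ovary and 5335 on control uterus. Before scaling, 1 *Csf1r* probe was at 9385 in control liver and 12704 in control ovary, while its other probes were brighter in liver. No other scaling was tried for the gaps between tissues. *Cd163*, the haemoglobin scavenger receptor, was well above background on the liver arrays alone, which bounds its gap at no less than 1.97-fold over ovary and 1.37-fold over uterus. Between control ovary and control uterus, *Marco* was lower in ovary by 1.03 on the log2 scale (−1.03), whereas *Cd5l* and *Timd4* were higher in ovary by 0.18 and 0.14, about the size of the technical SD.

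**Figure D1:**
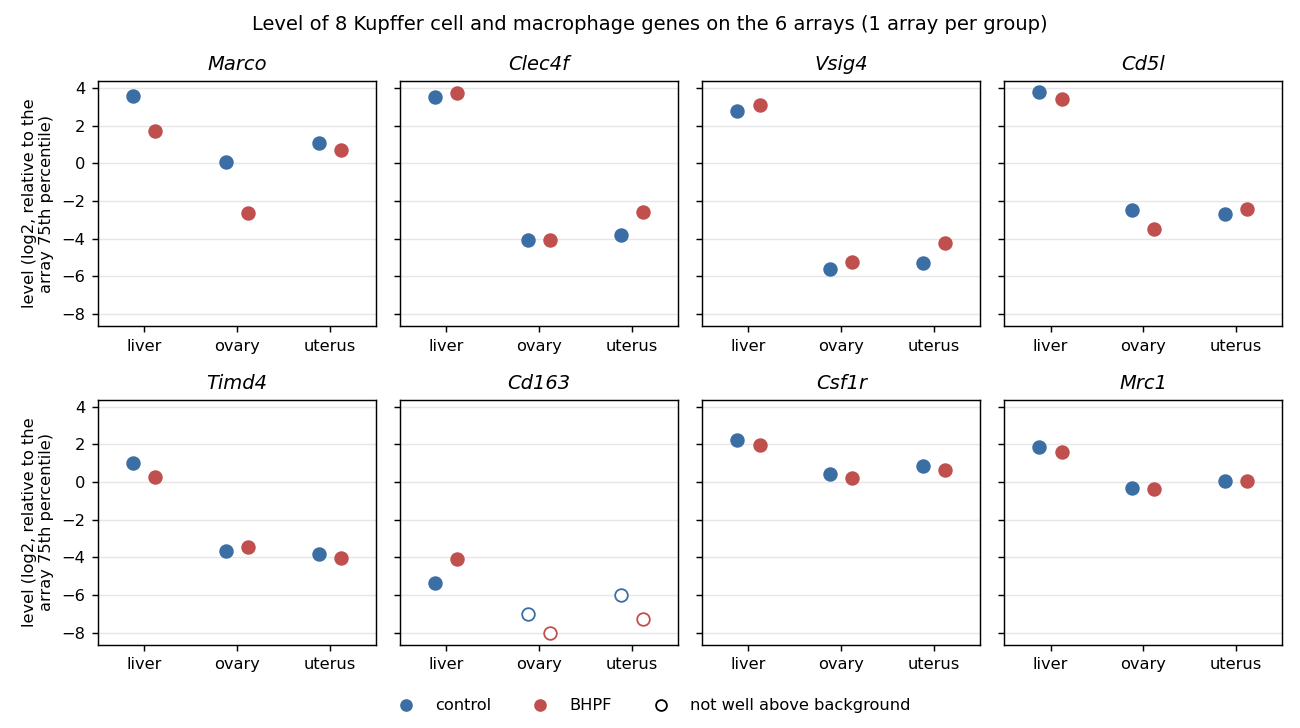
Level of each of 8 Kupffer cell and macrophage genes on the 6 arrays, in log2 units relative to the 75th percentile of the array, with control in blue and BHPF in red. Each point is 1 array of 1 pool, with no error bar, and open points were not well above background. *Marco* moves from 0.06 to −2.65 in ovary, while *Csf1r* and *Mrc1* stay close to their control points in all 3 tissues.

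*Marco* was the gene of the set that differed most between BHPF and control. Its level was 0.06 in control ovary and −2.65 in BHPF ovary, from spot intensities of 7829 and 1021. This is a log2 ratio of −2.71, or 6.53-fold lower, and only 7 of the 16863 genes measured in ovary had a lower ratio. The level was 3.57 in control liver and 1.72 in BHPF liver, a log2 ratio of −1.85 or 3.62-fold lower. In liver 60 of 15530 genes had a lower ratio. In uterus the levels were 1.1 and 0.71, a log2 ratio of −0.38 or 1.30-fold lower, and 1005 of 16161 genes had a lower ratio. The BHPF arrays were thus below the control arrays in the 3 tissues, by the most in ovary and by less than 2-fold in uterus. Subtracting liver signal by the hepatocyte genes put the uterus ratio at −1.41. That subtraction took 7.03% of the control liver level of each gene. The largest rise from control to BHPF uterus in the set was 0.839% of that level. Nothing is therefore read from the value of −1.41. Over the background corrections and scalings tried, the ratio lay between −2.77 and −2.66 in ovary, between −2.17 and −1.57 in liver and between −0.52 and −0.37 in uterus. With BHPF, the gap of liver over ovary was 20.6-fold and that of liver over uterus 2.0-fold.

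The receptors that mark Kupffer cells most sharply, *Clec4f* and *Vsig4*, did not follow *Marco*. The *Clec4f* level was 3.51 in control liver and 3.73 in BHPF liver, a log2 ratio of 0.22. *Vsig4* gave 2.80 and 3.08, a log2 ratio of 0.28. Both liver values lay above the control, and with the arrays scaled to the 50th percentile both lay slightly below it, at −0.10 and −0.03, while with normexp *Clec4f* was at 0.57. In ovary both genes were dim. *Clec4f* had levels of −4.08 and −4.06 there, a log2 ratio of 0.03, and *Vsig4* had −5.61 and −5.23, a log2 ratio of 0.38, from intensities of 154 and 170. The lowest level called well above background was −6.33 for control ovary and −5.74 for BHPF ovary, so *Vsig4* lay close to that limit.

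In uterus, *Clec4f* and *Vsig4* were the only genes of the set past 2-fold. *Clec4f* was at −3.78 in control and −2.57 in BHPF uterus, a log2 ratio of 1.21 or 2.31-fold higher. *Vsig4* was at −5.29 and −4.24, a log2 ratio of 1.04 or 2.06-fold higher, which is just inside the threshold and lay between 0.92 and 1.06 under the scalings and background corrections tried. These 2 of 7 measured genes stand beside 2.27% of all 16161 genes that were at least 2-fold higher in uterus. The same array held the liver transcripts described above. Taken as a percentage of the control liver level of the same gene, the excess of the BHPF uterus array over the control uterus array was 0.839 for *Clec4f*, 0.391 for *Vsig4*, 0.236 for *Cd5l* and 0.0985 for *Mrc1*. *Marco* (−4.18), *Csf1r* (−1.19) and *Timd4* (−0.50) had no excess. For the 18 hepatocyte genes the excess had a median of 7.03 and ran from 0.515 to 15.6. The lowest values were 0.515 for *Fga*, 0.576 for *Tat*, 0.710 for *Tdo2* and 0.897 for *Cps1*. *Clec4g*, a lectin of liver sinusoidal endothelium, was not well above background on the control uterus array and had an excess of 0.902, with a log2 ratio of at least 2.82. The other sinusoidal endothelial genes measured in uterus did not share this, with log2 ratios of 0.22 for *Stab2*, 0.03 for *Lyve1*, 0.04 for *Gpr182* and −0.31 for *Fcgr2b*, and the median excess of the list of 7 was 0.283. When liver signal in proportion to that median was subtracted from the BHPF uterus array, *Clec4f* was still 1.87-fold higher at 0.90 and *Vsig4* was at 0.37, so that 0 genes of the set were past 2-fold. By the median of the hepatocyte genes, more signal was removed than *Clec4f* and *Vsig4* had in excess, and neither was well above background afterwards. Their values of −1.29 and 0.00 are then set by the detection limit of the array and are bounds. Whether liver RNA gave the 2 uterus values was not tested. In ovary the median excess of the hepatocyte genes was 0.0884.

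**Figure D2:**
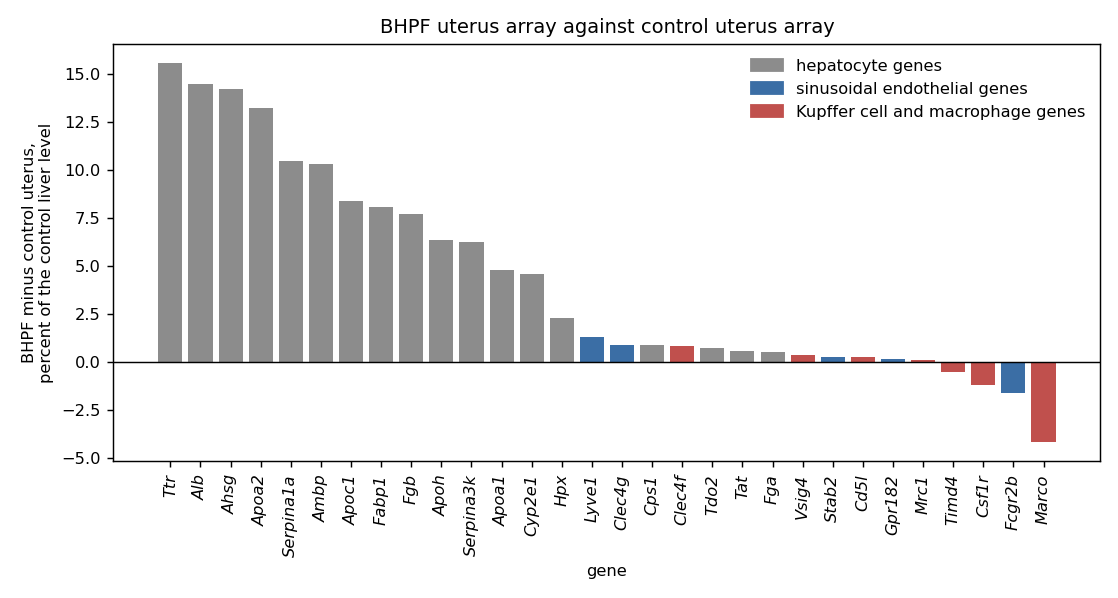
Linear level on the BHPF uterus array minus that on the control uterus array, as a percentage of the control liver level of the same gene, for hepatocyte genes (grey), liver sinusoidal endothelial genes (blue) and the 7 measured Kupffer cell and macrophage genes (red). Each bar is 1 pair of arrays, with no error bar. Hepatocyte genes reach 15.6, *Clec4f* and *Vsig4* lie at 0.839 and 0.391, and *Marco* lies below 0 at −4.18.

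*Cd5l* and *Timd4* had ratios of either sign, depending on the tissue. *Cd5l* was at 3.78 in control and 3.41 in BHPF liver, a log2 ratio of −0.38. In ovary it was at −2.48 and −3.46, a log2 ratio of −0.98 or 1.98-fold lower. This value lay just outside the 2-fold threshold, passed it at −1.0 with the 50th percentile and with quantile normalization, and 106 of 16863 genes had a lower ratio. In uterus *Cd5l* was at −2.66 and −2.39, a log2 ratio of 0.27. *Timd4* was at 1.0 in control and 0.25 in BHPF liver, a log2 ratio of −0.75 or 1.68-fold lower. Its log2 ratio in liver was −1.06 when the arrays were scaled to the 50th percentile. In ovary *Timd4* was at −3.66 and −3.45, a log2 ratio of 0.21, and in uterus at −3.81 and −4.02, a log2 ratio of −0.22. Subtracting liver signal by the sinusoidal endothelial genes put *Cd5l* at −0.06 in uterus and −2.14 in ovary, so its direction in uterus did not hold, and by the hepatocyte genes it was at −1.19 in ovary and at a bound of −2.41 in uterus. The sinusoidal endothelial genes had a median log2 ratio of 0.09 in ovary, below the technical SD, so nothing is read from the value of −2.14. *Timd4* in uterus was at 0.12 with normexp.

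*Cd163* could be compared in liver alone. Its level was −5.35 in control and −4.08 in BHPF liver, a log2 ratio of 1.27 or 2.41-fold higher, from intensities of 84.5 and 195. Its probe lay near the detection limit of these arrays, which was −5.62 for control and −4.91 for BHPF liver. Liver probes with a level between −5.5 and −4 were higher with BHPF in general. The 3332 probes in that range had a median log2 ratio of 0.44, and 13% of them were at least 2-fold higher. The *Cd163* ratio was 0.95 with the 50th percentile and 0.84 with quantile normalization, below 2-fold in both. On the ovary and uterus arrays *Cd163* was not well above background, and no ratio is given.

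The general macrophage genes of the set stayed within 2-fold in each tissue. *Csf1r* is the mean of 3 probes, and its level was 2.22 in control and 1.98 in BHPF liver, a log2 ratio of −0.24. In ovary it was at 0.43 and 0.23 and in uterus at 0.84 and 0.64, a log2 ratio of −0.20 in both. The probes did not agree on direction in every tissue, with ratios from −0.50 to 0.08 in liver, from −0.37 to −0.04 in ovary and from −0.65 to 0.08 in uterus. *Mrc1* was at 1.87 and 1.58 in liver, −0.32 and −0.36 in ovary and 0.07 on both uterus arrays, with log2 ratios of −0.29, −0.04 and 0.00. In ovary and uterus the *Mrc1* difference was below the technical SD, and with normexp the uterus ratio was −0.20.

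**Figure D3:**
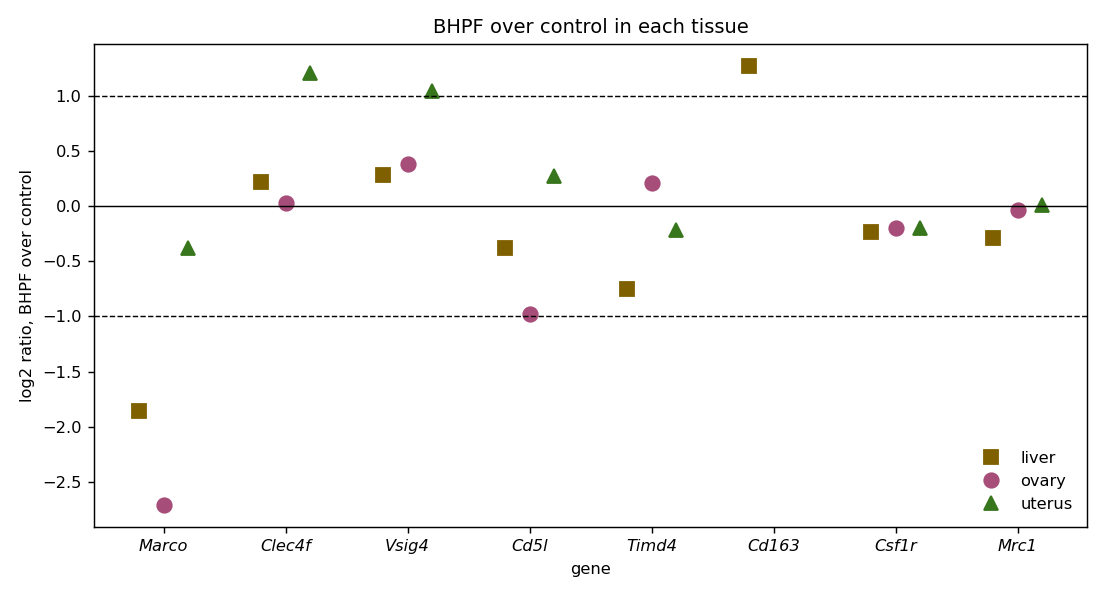
Log2 ratio of BHPF over control for 8 Kupffer cell and macrophage genes in liver (squares), ovary (circles) and uterus (triangles), with dashed lines at 2-fold. Each point compares 1 array with 1 array and has no error bar. *Marco* lies at −1.85 in liver and −2.71 in ovary, *Cd163* at 1.27 in liver, and *Clec4f* and *Vsig4* at 1.21 and 1.04 in uterus.

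Over the set, the median log2 ratio was −0.26 for the 8 genes measured in liver, −0.04 for the 7 measured in ovary and 0.00 for the 7 measured in uterus. Over all genes the medians were 0.00, 0.01 and 0.00. In liver 1 gene of the set was lower, *Marco*, and 1 was higher, *Cd163*, beside 1.54% of 15530 genes lower, 3.2% higher and 4.74% changed either way. In ovary *Marco* alone was lower and 0 genes were higher, beside 0.617% of 16863 genes lower, 0.474% higher and 1.09% changed either way. In uterus 0 genes were lower and 2 were higher, beside 0.823% of 16161 genes lower, 2.27% higher and 3.09% changed either way. Since *Marco* chose the set, nothing is read from its share in these counts.

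The question that set the comparison was how *Marco* stood beside general macrophage genes. A list of 23 such genes, among them *Adgre1*, which encodes the F4/80 antigen, and the complement genes *C1qa*, *C1qb* and *C1qc*, was all measured in each tissue. In ovary their median log2 ratio was −0.51, with 22 of 23 below 0, where 46.2% of all genes were below 0. *Marco* lay 2.20 below that median (−2.20) and below all 23 genes. The list held 2 genes at least 2-fold lower in ovary, *Cybb*, a subunit of the phagocyte oxidase, at −1.28 and *Adgre1* at −1.20. *C1qa*, *C1qb* and *C1qc* were at −0.61, −0.59 and −0.51. *Aif1*, *Fcer1g* and *Lyz2*, the brightest genes of the list, were at −0.54, −0.37 and −0.67. Within the set itself, *Csf1r* at −0.20 and *Mrc1* at −0.04 lay above 22 of the 23 list genes in ovary, and *Vsig4* and *Timd4* above all 23. *Cd5l* lay below 21 of the 23.

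In liver the median of the list was −0.40, with 19 of 23 below 0 and 47.6% of all genes below 0. Scaling to the 50th percentile moved the liver median of all genes from 0.00 to −0.30, and that of the list to −0.71. *Marco* lay 1.46 below the list median (−1.46), and 1 of the 23 genes was lower, *Cd14*, the co-receptor for lipopolysaccharide, at −2.25. *Ms4a7* at −1.17 and *Adgre1* at −1.08 were also at least 2-fold lower. *C1qa*, *C1qb* and *C1qc* were at −0.01, −0.11 and −0.09. *Clec4f* and *Vsig4* lay above 21 of the 23 genes in liver, *Cd163* above all 23, and *Cd5l*, *Csf1r* and *Mrc1* among them. *Timd4* lay below 19 of the 23. In uterus the list median was 0.08, with 15 of 23 genes above 0 and 0 past 2-fold. Its sign did not hold, since the median was −0.03 with normexp. It was −0.23 after liver signal was subtracted by the hepatocyte genes, and nothing is read from that value, as for *Marco*. *Marco* lay 0.46 below the list median of 0.08 (−0.46) and below 22 of the 23 genes, and *Clec4f* and *Vsig4* lay above all 23. The summed linear level of the 23 genes was 116 in control and 96.8 in BHPF liver, 46.8 and 33.9 in ovary, and 54.1 and 57.9 in uterus.

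**Figure D4:**
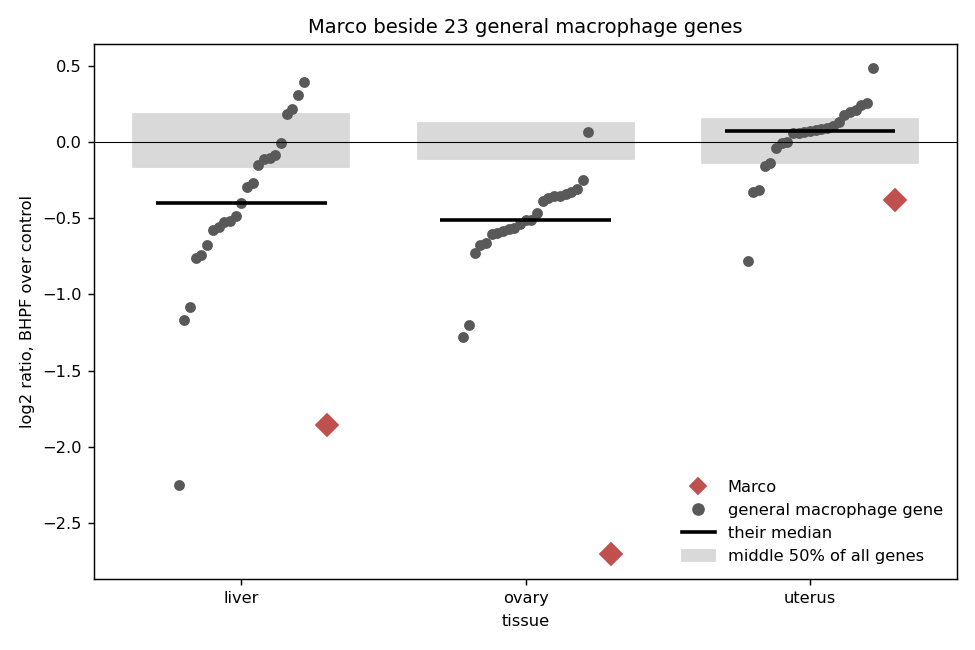
Log2 ratio of BHPF over control for *Marco* (red diamonds) and 23 general macrophage genes (grey points, sorted) in each tissue, with the median of the 23 genes as a black line and the middle 50% of all measured genes as a grey band. Each point compares 1 array with 1 array. *Marco* lies below all 23 genes in ovary and below 22 of them in liver and in uterus, and 22 of the 23 lie below 0 in ovary.

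Few other genes of Kupffer cells and of scavenging were past 2-fold. Of 11 other Kupffer cell genes, among them *Id3*, *Slc40a1* and *Nr1h3*, the median log2 ratio was −0.16 in liver, −0.14 in ovary and −0.10 in uterus. The list held 1 gene past 2-fold, *Spic*, the transcription factor of iron-recycling macrophages, which was at 2.14 in control and 0.37 in BHPF liver, a log2 ratio of −1.77. *Spic* was at 0.21 in ovary and −0.44 in uterus. Of 12 other scavenger receptors, with medians of −0.19, −0.03 and −0.05, only *Msr1*, another class A scavenger receptor, reached 2-fold, in uterus, where its ratio of −1.02 is a bound for 1 of its probes. *Msr1* was at −0.19 in liver and −0.99 in ovary. Of 14 genes of colony-stimulating factors, their receptors and macrophage transcription factors, 13 were measured in liver and 12 each in ovary and uterus, and 0 of these were past 2-fold, with medians of −0.22, −0.04 and 0.19. *Csf1* and *Il34*, the ligands of *Csf1r*, were at −0.05 and −0.03 in liver, −0.21 and 0.35 in ovary and −0.29 and 0.21 in uterus. *Spi1* was at −0.64 in liver, at a bound of −0.19 in ovary, where it was well above background on the control array alone, and not well above background in uterus.

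The genes whose levels over the 6 arrays most resembled those of *Marco* were sought among 17633 genes, by the distance between levels after the mean of each gene was removed. The 5 nearest were *S100a9* at a distance of 0.54, *S100a8* at 1.09, *Fpr2* at 1.16, *Pirb* at 1.24 and *Retnlg* at 1.25. Of these, *S100a9*, *S100a8*, *Fpr2* and *Retnlg* are on the neutrophil list. *S100a9* was at −2.27 in liver, −2.55 in ovary and −1.0 in uterus, beside −1.85, −2.71 and −0.38 for *Marco*. The nearest genes were picked on the same 6 arrays, the BHPF arrays included. Ratios close to those of *Marco* therefore follow from the choice and support nothing. For *Clec4f* the nearest genes were *Gls2*, *C730027H18Rik*, *Gltpd2*, *Prodh2* and *Kmo*, at distances from 0.32 to 0.56. For *Csf1r* they were *Cd47*, *Cebpb*, *Zcchc2*, *Pex26* and *Gphn*, at distances from 0.21 to 0.24. The 6 arrays are 3 tissues in pairs, so most of each pattern is the difference between tissues.

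Most neutrophil genes were lower with BHPF. Their median was lowest in liver, over 17 genes there and 15 in ovary, and the *Marco* ratio was lowest in ovary. Single neutrophil genes had either order. *S100a8* was at −2.73 in liver and −3.13 in ovary, and *Retnlg* at −2.38 and −2.08. Of all genes, 1.54% in liver, 0.617% in ovary and 0.823% in uterus were at least 2-fold lower. All 17 measured neutrophil genes were below 0 in liver, with a median of −2.27 and 13 at least 2-fold lower, and their summed linear level went from 102 to 43.8. In ovary all 15 measured genes were below 0, with a median of −1.24 and 8 at least 2-fold lower, and the sum went from 16.5 to 12.6. In uterus 11 of 16 were below 0, with a median of −0.50, 4 at least 2-fold lower and *Ctsg* higher at 3.32, and the sum went from 51.7 to 42.2. *Elane* and *Mpo* were not well above background in ovary. The largest ratios in liver and ovary were those of *Ltf*, at −4.18 and −3.98. *Csf3r*, a bright gene of the list, hardly differed. Its control and BHPF levels were 4.28 and 4.12 in liver, 3.47 and 3.46 in ovary and 3.83 and 3.86 in uterus. Single genes of other myeloid lists were lower as well. The 8 measured monocyte genes had medians of −0.44, −0.18 and −0.07 in liver, ovary and uterus, with 2, 1 and 1 genes at least 2-fold lower. These were *Chil3*, at −3.09 in liver, at −2.97 as a bound in ovary and at −2.72 in uterus, and *F13a1*, at −3.52 as a bound in liver, 0.39 in ovary and −0.19 in uterus. The brightest monocyte genes, *Fn1*, *Plac8* and *Ms4a6c*, were at −0.03, −0.11 and −0.60 in liver and −0.20, −0.31 and −0.81 in ovary. Of 11 peritoneal macrophage genes, 1 was past 2-fold, *Cxcl13*, which was at −3.41 in liver, −2.38 in ovary and −0.05 in uterus, with list medians of −0.08, −0.13 and 0.10. Lymphoid tissue and B cell genes had medians of −0.04, −0.08 and 0.21, with *Ms4a1* at −1.13 in liver and *Cd79b* at −1.18 in ovary past 2-fold, and liver sinusoidal endothelial genes of −0.03, 0.09 and 0.04. The part of neutrophils, monocytes or peritoneal cells in the *Marco* values, and in those of the general macrophage list, was not tested.

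**Figure D5:**
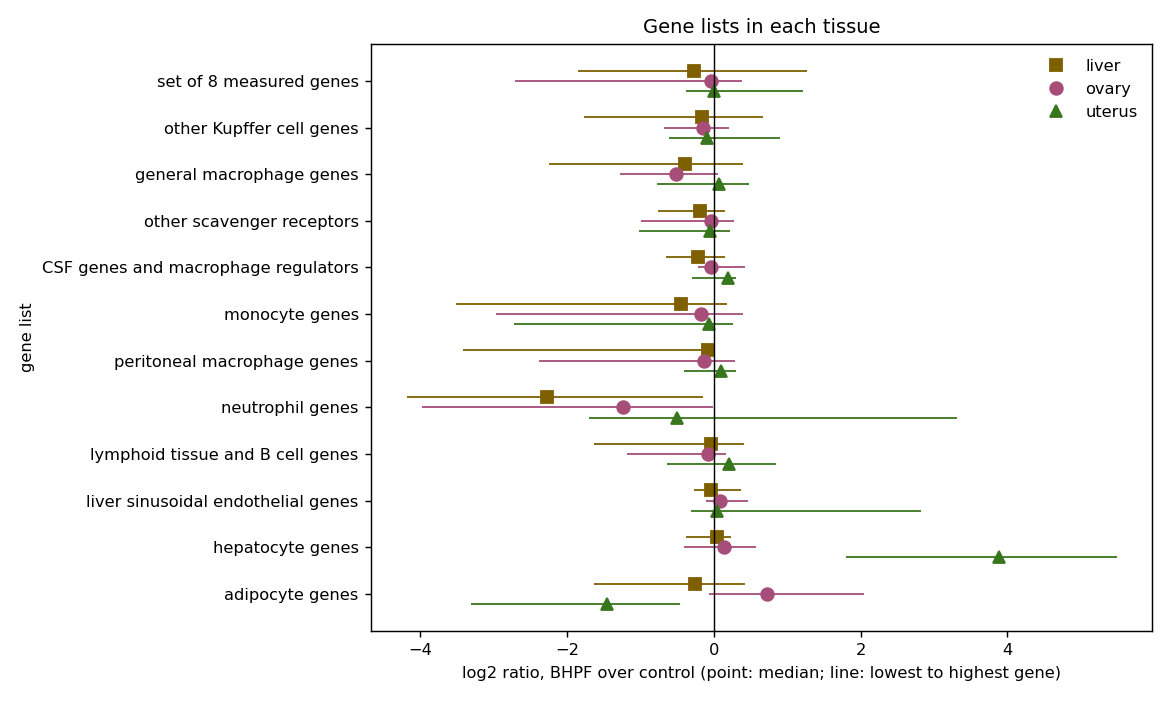
Median log2 ratio of BHPF over control (points) and the range from the lowest to the highest gene (lines) for 12 gene lists in liver, ovary and uterus. The set described here, in the top row, has medians between −0.26 and 0.00, the general macrophage genes −0.40, −0.51 and 0.08, the neutrophil genes −2.27, −1.24 and −0.50, and the hepatocyte genes 3.89 in uterus.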

How the data were processed

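RNA pools of 3 mice were labelled with Cy3 and hybridized to Agilent mouse arrays, 1 for each of the 6 groups. Scans were read by the authors with Agilent Feature Extraction (version 9.1 in the submitters' processing notes, 11.5.1.1 in the file headers). The deposited intensity of a spot is linear and background-subtracted, with no normalization between arrays. The deposited log2 table equals the log2 intensity less a constant for each array, and served as an alternative.

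Outlier and control spots were left out, log2 intensities of repeated spots were averaged, and the 75th percentile of the 55681 probes was subtracted within each array (the methods give a percentile shift but not the percentile). Probes well above background on 1 or both arrays of a tissue were evaluated there. With 1, the other was taken at its own level or its lowest level well above background, whichever was higher, which makes the ratio a bound. Probes of 1 gene were averaged. Symbols came from accessions matched to RefSeq genes of GRCm38.p6, for 26762 probes (48.1%). The array design names another build, so no probe coordinates are given. On the gene lists, *Cd68*, *Ly6c2*, *Ly6g* and *Ccl21a* were not matched to a probe.

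With 1 array per group no test was made, and no shared effect across the 3 tissues was tested. Genes, lists and rules were chosen with earlier results of these data known. The rule for named genes took all members, the 3 brightest genes of a list and those past 2-fold (5 per list and tissue at most), and the 5 genes nearest to *Marco*, *Clec4f* and *Csf1r*. Not all of these are printed for lists further from the members, and a few other genes were added after their values were seen. Alternatives covered limma's normexp (offset 50, run on the median signal), the 50th percentile, the percentile over probes detected on all arrays, quantile normalization, the authors' table, the filter, the bound, the brightest probe, a 1.5-fold threshold and the subtraction of liver signal. Python 3.11.15, pandas 2.3.3, R 4.3.3 and limma 3.58.1 were used, and the ratio step was tested on simulated data.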

Additional observations from a re-analysis of the deposited data

Results flagged for a closer look

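*Cd5l* lay on opposite sides of 0 in different tissues, by more than 1 technical SD on each side. Its log2 ratio was −0.38 in liver, −0.98 in ovary and 0.27 in uterus. The difference was not tested, since each tissue had 1 array per group, and the positive sign in uterus did not hold after liver signal was subtracted by the sinusoidal endothelial genes (−0.06).

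*Timd4* did the same, with log2 ratios of −0.75 in liver, 0.21 in ovary and −0.22 in uterus, and this difference was not tested either. In ovary and uterus its levels lay between −4.02 and −3.45, near the range below −4 where the SD among repeated spots was 0.137 to 0.202 on the ovary and uterus arrays. The BHPF uterus array is the one that carried liver transcripts, and both genes were brightest in liver.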

How the results depend on the processing

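Leaving out a replicate was not possible with 1 array per group. No paired analysis was possible because each group had 1 array and its replicate number carried no pairing. Of 158 values of *Marco*, of the list medians and of the counts under the alternatives, 131 moved by less than the technical SD, or by less than 1.5 times for counts. The cause of the other shifts was not tested. The count does not measure robustness, since part of the values could hardly move. The authors' table differs from the scanner values by a constant for each array, and was used with its uterus columns as headed and exchanged. No ratio of the set was a bound, so the filter and the bound left its values as they were. With the 50th percentile, liver gave medians of −0.58 for the set and −0.71 for the 23 general macrophage genes and a *Marco* ratio of −2.17, and 2 genes were past 2-fold in ovary and 1 in uterus. With quantile normalization, *Marco* in liver was at −1.57, or −1.13 from the general median, and 1 gene was past 2-fold in liver, 2 in ovary and 1 in uterus. With normexp *Marco* in uterus was at −0.52. A 1.5-fold threshold gave 2 genes in ovary. With the uterus columns as headed in the authors' table, uterus gave *Marco* 0.38, or 0.46 from the general median, which was −0.075, *Clec4f* −1.21 and *Vsig4* −1.04. Subtracting liver signal by the share of the hepatocyte genes gave in ovary a set median of −0.21 and 2 genes past 2-fold. In uterus it gave *Marco* at −1.41, or −1.18 from a general median of −0.23. Nothing is read from these values, since the share taken was 7.03% and the largest excess in the set 0.839%. The subtraction left 4 of the 7 measured genes of the set, *Clec4f*, *Vsig4*, *Cd5l* and *Timd4*, not well above background. *Clec4f* at −1.29, *Vsig4* at 0.00, the set median of −1.26 and the count of 4 genes past 2-fold, *Marco* excepted, are therefore set by the detection limit. By the share of the sinusoidal endothelial genes, an alternative added after the data were seen, ovary gave a set median of −0.23, 3 genes past 2-fold and *Marco* at −3.16, or −2.62 from the general median, and uterus gave 0 genes past 2-fold, with *Clec4f* still at 0.90. The ovary share was 0.363% of the control liver level, the excess of *Gpr182*, which was at −0.90 in control and −0.84 in BHPF ovary. The median log2 ratio of the sinusoidal endothelial genes in ovary was 0.09, below the technical SD. Nothing is therefore read from the ovary values after this subtraction. Below about −5 on the level scale, signal over background limits what can be said of *Vsig4* and *Cd163*.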
